A study of Homo sapiens with 6 samples.

Results

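Polycomb repressive complex 2 (PRC2) was followed through 10 genes, the core subunits EZH2, EZH1, SUZ12, EED, RBBP4 and RBBP7 and the cofactors AEBP2, JARID2, PHF19 and MTF2. They were chosen by name, and all 10 have a row among the 14959 genes of the deposited table. The libraries came from UM-SCC1, a human cell line grown from a squamous carcinoma of the head and neck. Cells received either synthetic mimics of miR-204-5p (3 libraries) or control mimics (3 libraries), each from an independent experiment, and RNA was taken 48 h after transfection. A mimic is a short double-stranded RNA that loads into Argonaute as the mature miRNA does. Both groups share the line and the transfection, and the values describe this line only.

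PRC2 places methyl groups on H3K27, a mark that keeps genes silent. EZH2 or the less active EZH1 carries the catalytic SET domain, SUZ12 is the scaffold on which the complex is built, EED reads the finished mark and stimulates the enzyme, and RBBP4 or RBBP7 binds histones. Cofactors join the core in mutually exclusive sets. AEBP2 and JARID2 form one set, and the Polycomb-like proteins PHF19, MTF2 and PHF1 belong to the other. In carcinoma cells EZH2 is usually the dominant catalytic subunit and is linked to proliferation.

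The mature sequence of hsa-miR-204-5p is shown because its seed, bases 2 to 8 in capitals, defines the matches searched in the PRC2 mRNAs. It is given as RNA, from RefSeq on GRCh38.p14 (minus strand, chr9:70810031-70810052).
hsa-miR-204-5p: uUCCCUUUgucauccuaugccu

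In the longest 3'UTR annotated for a gene, 4 kinds of match were searched on the mRNA strand, the 8mer AAAGGGAA, the 7mer-m8 AAAGGGA, the 7mer-A1 AAGGGAA and the 6mer AAGGGA. The shorter ones lie within the longer ones, and each place was counted once, under its longest match. The sites below are the 3 8mers of PRC2 genes and the single match of SUZ12, the match in capitals, from GENCODE 29 transcripts.
JARID2 (exon 18, plus strand, chr6:15521615-15521622): tgtggaataaaAAAGGGAAactgttttcac
AEBP2 (exon 9, plus strand, chr12:19522156-19522163): atgtattcataAAAGGGAAgaaattgttag
PHF19 (exon 10, minus strand, chr9:120856676-120856683): ttggttccctcAAAGGGAAgcccttgccag
SUZ12 (exon 16, plus strand, chr17:32000308-32000313): ttttgtttaatgAAGGGAtatataagcttt

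An 8mer was thus found in 3 of the 10 genes, where 8.60% of the 14664 genes with a 3'UTR hold one. SUZ12 held only the 6mer, the best match in 12.3% of genes. JARID2 also held 1 6mer and AEBP2 2. EZH2, EZH1, EED, RBBP4, RBBP7 and MTF2 held none of the 4 kinds, as did 60.6% of genes. Searching all annotated 3'UTRs of each gene left the number with 7 or more matching bases at 3. A match describes the letters only, and binding to these places was not analysed here.

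The deposited values are FPKM, which count the sequenced fragments of a gene relative to transcript length and library size, and each gene is listed with 1 transcript. FPKM multiplied by the listed length summed to 63.4% to 64.0% of its nominal total per library, and the sources used here do not say whether a value belongs to the listed transcript or to the whole gene. The listed transcripts of RBBP7 (373 bases) and AEBP2 (518 bases) are short fragments of genes whose longest annotated transcripts have 4031 and 5099 bases. The transcript listed for EZH2 (3641 bases) is annotated as a target of nonsense-mediated decay. Levels of these 3 genes should be read with that in mind. Depth was inferred at 13.1 to 16.4 M fragments per library (M, mega), from a step that 28.0% to 31.2% of low values followed, against 3.30% to 5.54% at a wrong step. At the listed lengths this gives SUZ12 1108 to 2136 fragments per library, RBBP7 115 to 205 and AEBP2 70.1 to 128, the last 2 being the lowest numbers of the 10 genes if the values belong to the listed transcripts. Counting error is only part of the spread between experiments.

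With miR-204-5p mimics the mRNAs of SUZ12, JARID2, AEBP2 and PHF19 were lower, that of RBBP7 was higher, and those of EZH2, EZH1, EED, RBBP4 and MTF2 did not pass the test. The test was limma on log2(FPKM + 1) over all genes, two-sided, with Benjamini-Hochberg adjustment and a threshold of 0.05. Of the 10 genes 4 were lower, where 16.8% of all genes were, and 1 was higher, where 23.9% of all genes were. In either direction 5 of 10 passed, close to the 40.8% of all genes. The median log2 difference was −0.16 for the 10 genes and 0.03 for all genes. For 6 of the 10 the FPKM ranges of the groups were separate, as for 53.6% of all genes, with 5 lower (22.7% of all genes) and 1 higher (30.9% of all genes). Differences are stated on the log2(FPKM + 1) scale, which understates changes of genes with low FPKM, and in bulk RNA fewer expressing cells and less RNA per cell cannot be told apart.

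**Figure D1:**
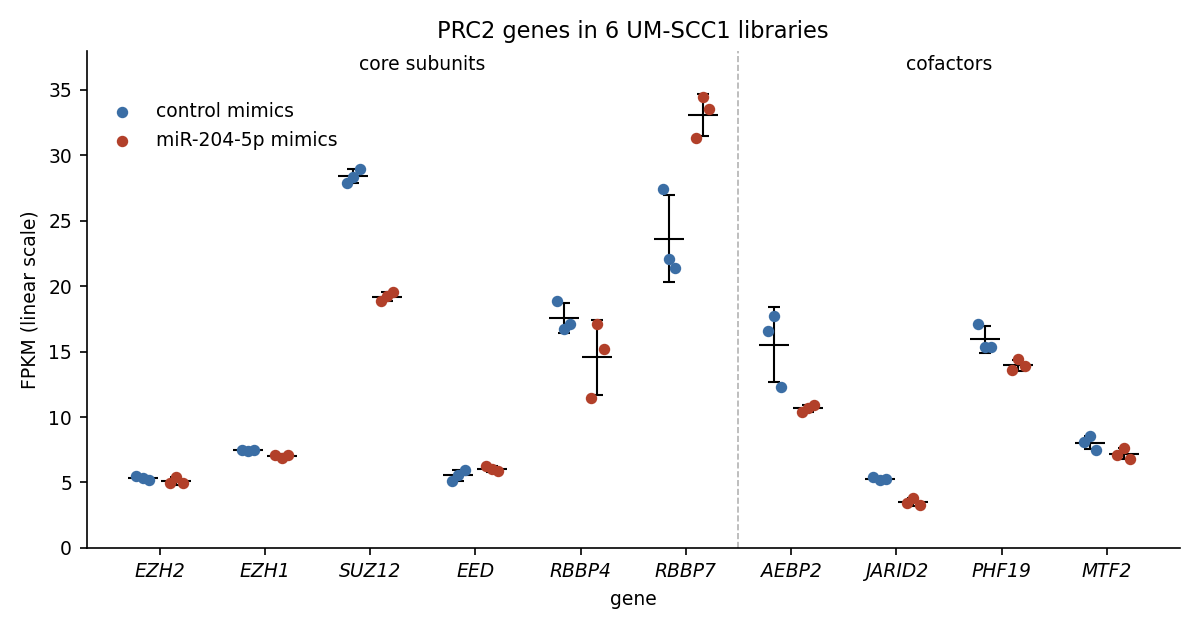
FPKM (linear scale) of the 10 PRC2 genes in each library. Points are single libraries, blue for control mimics and red for miR-204-5p mimics, and bars give the mean and SD of 3 libraries. The red points of SUZ12 (18.9 to 19.5) lie far below the blue ones (27.9 to 28.97), those of RBBP7 lie above, and those of EZH2 mix with the blue ones.

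Of the 10 genes the catalytic subunits had the smallest differences. EZH2 (ENSG00000106462), whose listed transcript spans 148807383 to 148884283 of chromosome 7 (minus strand), had 4.92, 5.42 and 4.98 FPKM with miR-204-5p mimics and 5.51, 5.38 and 5.16 in the control libraries. The groups overlapped, with mimics replicate 2 inside the range of the controls. The log2 difference was −0.06 (95% interval −0.20 to 0.09, limma adjusted p = 0.497). EZH1, its paralog (chromosome 17, 42700275 to 42745030), had 7.09, 6.88 and 7.13 FPKM with miR-204-5p mimics and 7.45, 7.43 and 7.45 in the control libraries. Every mimics library was below every control library, but by little, and the log2 difference of −0.07 did not pass (95% interval −0.18 to 0.04, limma adjusted p = 0.264).

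SUZ12 showed the clearest difference of the complex. This gene (ENSG00000178691, chromosome 17 from 31937018 to 32001045) had 18.9, 19.2 and 19.5 FPKM with miR-204-5p mimics against 27.9, 28.4 and 28.97 with control mimics. The libraries of each group lay close together and far from the other group, and the mean was lower by 32.4%. The log2 difference was −0.54 (standard error 0.0365, 95% interval −0.63 to −0.45, limma adjusted p = 0.000149), at percentile 4.41 of the log2 differences of all genes. It passed the test under all 12 alternatives. GENCODE 29 names 1 pseudogene of SUZ12, SUZ12P1, and how the counting treated reads shared with it is not given in the sources used here.

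For EED, the reader of the mark, no difference passed. It had 6.27, 5.9999 and 5.84 FPKM with miR-204-5p mimics and 5.13, 5.55 and 5.96 in the control libraries. The groups overlapped at their edges, and the log2 difference was 0.11 (95% interval −0.05 to 0.26, limma adjusted p = 0.254).

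Of the histone-binding paralogs RBBP7 passed the test and RBBP4 did not. RBBP4 had 11.5, 17.1 and 15.2 FPKM with miR-204-5p mimics and 18.9, 16.7 and 17.1 in the control libraries. Mimics replicate 1 was the lowest library, and mimics replicate 2 lay among the controls. The log2 difference of −0.27 did not pass (95% interval −0.60 to 0.06, limma adjusted p = 0.163) and was −0.12 without mimics replicate 1. GENCODE 29 names 6 pseudogenes of RBBP4, which can share reads with it, and SYNC overlaps its exons on the opposite strand at 0.362 ± 0.0404 against 0.537 ± 0.110 FPKM (SD, n = 3).

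RBBP7 (ENSG00000102054, chromosome X, minus strand, 16839283 to 16852065) had 31.3, 34.5 and 33.5 FPKM with miR-204-5p mimics and 27.5, 22.1 and 21.4 in the control libraries. All mimics libraries were above all controls, by 40.1% in the mean, and control replicate 1 was the nearest. On the log2 scale the difference was 0.48 (standard error 0.0965, 95% interval 0.25 to 0.71, limma adjusted p = 0.00869). It passed with each library left out in turn, with log2 differences from 0.41 to 0.59. RBBP7 shares exonic sequence with TXLNG on the opposite strand, and whether the counting used strand is not given. TXLNG had a log2 difference of 0.12 (limma adjusted p = 0.210).

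**Figure D2:**
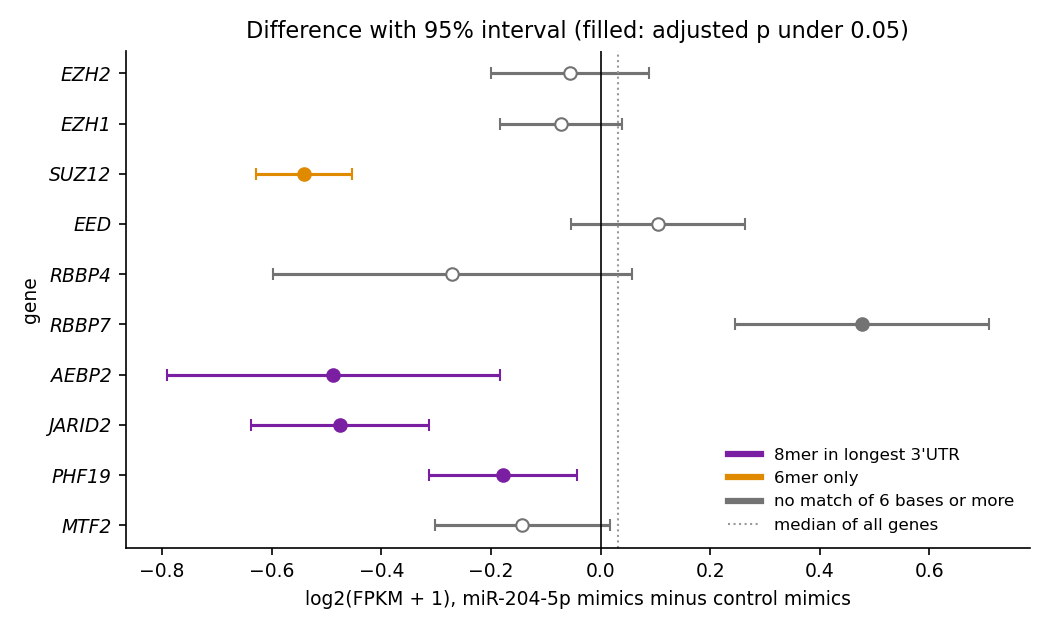
Log2 difference of each PRC2 gene (miR-204-5p mimics minus control mimics, log2(FPKM + 1)) with its 95% interval from limma. Filled points passed an adjusted p of 0.05, colour gives the best seed match in the longest 3'UTR, and the dotted line is the median of all genes at 0.03. All 3 genes with an 8mer lie left of 0, with intervals that do not reach it.

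JARID2 and AEBP2, the cofactors that join the same form of the complex, were both lower. JARID2 helps recruit the complex and stimulates its activity. The gene (ENSG00000008083, chromosome 6 from 15246296 to 15522021) had 3.47, 3.83 and 3.25 FPKM with miR-204-5p mimics and 5.42, 5.16 and 5.22 in the control libraries. The groups were well separated, and the mean was lower by 33.3%. The log2 difference was −0.48 (standard error 0.0675, 95% interval −0.64 to −0.31, limma adjusted p = 0.00214), and it passed under all 12 alternatives. The 8mer shown above lies inside the transcript that the table lists for JARID2.

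AEBP2, a zinc-finger protein that stabilizes the complex on chromatin, had 10.4, 10.7 and 10.9 FPKM with miR-204-5p mimics and 16.6, 17.7 and 12.3 in the control libraries. The mimics libraries were tightly grouped, while control replicate 3 came near them. Its log2 difference was −0.49 (standard error 0.126, 95% interval −0.79 to −0.18, limma adjusted p = 0.0222). The call was lost when mimics replicate 1, 2 or 3 or control replicate 1 or 2 was left out (limma adjusted p from 0.0534 to 0.0711), and without control replicate 3 the log2 difference was −0.64 (limma adjusted p = 0.00140). The transcript listed for AEBP2 ends at 19493829 on chromosome 12, upstream of the 8mer.

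PHF19 and MTF2 are Polycomb-like proteins, which read methylated histone H3 and bind DNA at CpG islands. PHF19 had 13.6, 14.4 and 13.9 FPKM with miR-204-5p mimics and 17.1, 15.3 and 15.4 in the control libraries. The groups did not overlap, but the gap to the nearest control was small. The log2 difference was −0.18 (standard error 0.0563, 95% interval −0.31 to −0.04, limma adjusted p = 0.0446), and the call was lost whichever library was left out (limma adjusted p from 0.0602 to 0.116).

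MTF2 had 7.10, 7.65 and 6.82 FPKM with miR-204-5p mimics and 8.09, 8.52 and 7.51 in the control libraries. Mimics replicate 2 was above control replicate 3, so the groups overlapped, and the log2 difference was −0.14 (95% interval −0.30 to 0.02, limma adjusted p = 0.136).

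By site class, the 3 genes with an 8mer and SUZ12 with its 6mer were the 4 that were lower. Of the 6 genes without a match 1 was higher and 5 did not pass, where 28.1% of all genes without a match were higher. The call of PHF19 was lost whichever library was left out, and that of AEBP2 for every library but control replicate 3. Over all genes with a 3'UTR, 33.5% of those with an 8mer were lower, 18.3% of those with a 6mer as best match and 12.5% of those with none. The difference of SUZ12 was nearly equal to those of JARID2 and AEBP2, although its only match was a 6mer. The difference of PHF19, with an 8mer inside its listed transcript, was the smallest of the 4. The 8mer of AEBP2 lies outside its listed transcript. Whether the matches acted on these mRNAs was not tested here. The authors report separate reporter and Argonaute experiments on SUZ12, which these libraries do not include.

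Paralogs that take the same place in PRC2 were compared by the ratio of their FPKM in each library. The ratio of EZH2 to EZH1 was 0.694, 0.789 and 0.698 with miR-204-5p mimics and 0.739, 0.724 and 0.692 in the control libraries. These ranges overlapped, and the log2 ratio differed by 0.01 between groups (two-sided exact permutation p = 0.8, n = 3 against 3). EZH2 was therefore listed below EZH1 in every library, a comparison that rests on the listed transcript of EZH2. The ratio of RBBP7 to RBBP4 was 2.74, 2.01 and 2.21 with miR-204-5p mimics and 1.45, 1.32 and 1.25 in the control libraries. Which of these paralogs is the more abundant also rests on the listed transcripts. These have 373 bases for RBBP7 and 1788 for RBBP4, where the longest annotated ones have 4031 and 7943.

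All mimics libraries had a higher RBBP7 to RBBP4 ratio than all controls. The log2 ratio was 1.20 ± 0.227 with miR-204-5p mimics and 0.42 ± 0.110 in the control libraries (SD, n = 3), a difference of 0.78. It did not pass by a two-sided exact permutation test (p = 0.1, and 0.3 after adjustment over the 3 pairs), where 0.1 is the lowest value this design can give. The ratio of PHF19 to MTF2 was 1.91, 1.88 and 2.04 with miR-204-5p mimics and 2.12, 1.80 and 2.05 in the control libraries, and the log2 ratio differed by −0.03 (two-sided exact permutation p = 0.8, n = 3 against 3).

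**Figure D3:**
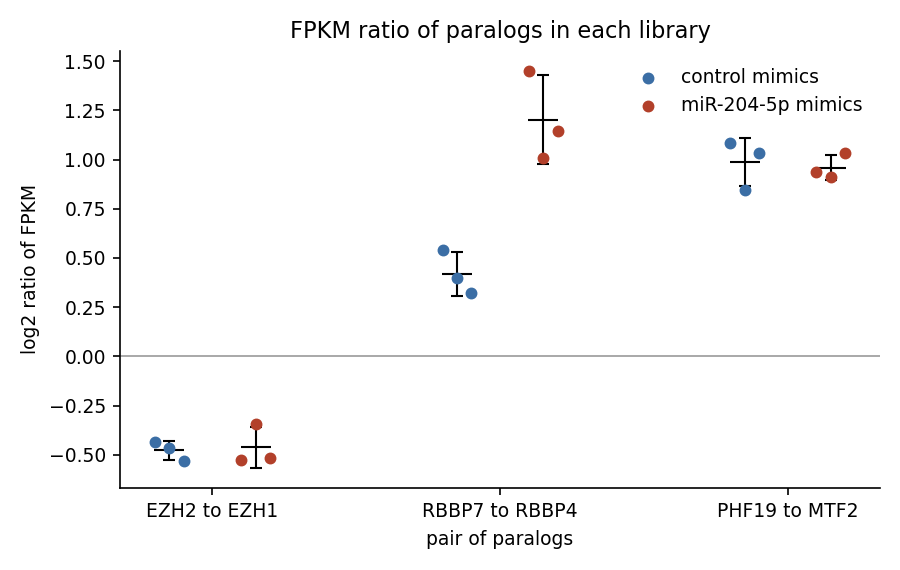
Log2 ratio of FPKM for 3 pairs of PRC2 paralogs in each library, with mean and SD of 3 libraries per group. RBBP7 to RBBP4 is the pair whose groups do not overlap, at 0.42 with control mimics and 1.20 with miR-204-5p mimics.

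The gene whose values ran most like those of SUZ12 over the 6 libraries was TOP1 (Pearson r = 0.9996 on log2(FPKM + 1)), followed by LANCL1 (r = 0.9994) and GNAO1 (r = 0.9991), among 11503 genes whose FPKM averaged 1 or more. Correlations over 0.9 with SUZ12 were held by 1867 genes. For EZH2 the nearest were ARHGAP30 (r = 0.985), HCLS1 (r = 0.973) and VTI1A (r = 0.971), and 36 genes exceeded 0.9. All 6 points share the split into groups, and the 3 genes nearest to SUZ12 had log2 differences of −0.55, −0.43 and −1.12.

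Other PRC2 cofactors were counted from a list of 8 symbols, of which 6 had values. PHF1, the third Polycomb-like protein, was lower, at 15.4 ± 0.635 against 21.0 ± 2.31 FPKM (SD, n = 3; log2 difference −0.42, limma adjusted p = 0.00705). ELOC, the elongin C subunit found with one form of PRC2 and in many ubiquitin ligases, was higher (log2 difference 0.32, limma adjusted p = 0.00199). EPOP (−0.13), LCOR (−0.17), LCORL (−0.12) and ELOB (0.02) did not pass. The best match of PHF1 is a 6mer, and all 4 genes that did not pass have a match of 7 or more bases. EPOP, LCOR and LCORL were lower in every mimics library than in every control library, while ELOB overlapped. The gap was very small for EPOP (highest mimics library 5.36, lowest control library 5.37 FPKM) and LCORL (1.79 against 1.80 FPKM). Of the 6 genes 4 had separate FPKM ranges with mimics lower (22.7% of all genes) and 1 with mimics higher (30.9% of all genes). A part of the matches in these values was not tested.

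PRC1 adds ubiquitin to histone H2A, and some of its forms read the mark of PRC2. Of its 26 listed subunits 9 were lower (16.8% of all genes were) and 5 higher (23.9% of all genes), with a median log2 difference of −0.06. Lower genes included SCML2 (−0.45) and L3MBTL2 (−0.45). CBX2, a chromodomain reader of H3K27 methylation, was highest, at 2.61 ± 0.112 against 1.28 ± 0.0921 FPKM (SD, n = 3; log2 difference 0.66, limma adjusted p = 0.000410). It was followed by the polyhomeotic subunits PHC1 (0.59) and PHC3 (0.50). An 8mer was held by 2 of the 9 lower subunits, SCML2 among them, and by 2 of the 5 higher, PHC3 among them. Without mimics replicate 1 the call of SCML2 was lost (limma adjusted p = 0.0510) and 5 subunits were lower.

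PR-DUB, the BAP1 complex, removes the ubiquitin that PRC1 adds. Values were listed for 10 subunits, of which 6 were lower, beside 16.8% of all genes. By limma 0 were higher at the adjusted threshold and 0 at an unadjusted p of 0.05. MBD5 (log2 difference −0.51), MBD6 (−0.42) and ASXL2 (−0.36) were lowest, and the catalytic subunit BAP1 had 18.5 ± 0.878 against 20.8 ± 0.431 FPKM (SD, n = 3; −0.16, limma adjusted p = 0.0320). The call of MBD6 was lost without mimics replicate 1, control replicate 1 or control replicate 2 (limma adjusted p from 0.0628 to 0.0790). Of the H3K27 demethylases, KDM6B was lower (log2 difference −0.41, limma adjusted p = 0.0190) and KDM6A did not pass (0.09, limma adjusted p = 0.365). The call of KDM6B was lost without mimics replicate 1 or 2 or control replicate 1 or 2 (limma adjusted p from 0.0606 to 0.0631).

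RBBP4 and RBBP7 also serve other complexes, and 25 genes of these were listed. Lower were 9, beside 16.8% of all genes, and higher 4, beside 23.9%. HDAC1, the histone deacetylase of the SIN3 and NuRD complexes, had 62.5 ± 2.89 against 126 ± 2.49 FPKM (SD, n = 3; log2 difference −0.995). LIN54 (−0.53) and SIN3A (−0.45) came next. HAT1, the acetyltransferase of new histone H4 whose known partner is RBBP7, was the highest, at 25.8 ± 2.43 against 14.3 ± 1.85 FPKM (0.81, limma adjusted p = 0.00151). CHAF1B, a subunit of the chromatin assembly factor that holds RBBP4, was higher by 0.30 and HDAC2 by 0.26 on the log2 scale.

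HOX genes are textbook Polycomb targets. Of 39 listed, 34 were in the table and 22 averaged 1 FPKM or more. By limma 3 of the 34 were lower and 6 higher, and 25 did not pass. Neither count stands above the shares of all genes, 16.8% lower and 23.9% higher, and the median log2 difference was 0.05. HOXB9 (log2 difference 0.29, limma adjusted p = 0.0319) and HOXC10 (0.24, limma adjusted p = 0.0300) were among the higher genes. HOXB7 (−0.63), HOXA6 (−0.51) and HOXD10 (−0.14) were lower. The call of HOXB9 was lost on leaving out any one of 4 libraries, that of HOXC10 on leaving out any one of 5, and that of HOXD10 whichever library was left out. Without control replicate 1, 3 HOX genes were higher.

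**Figure D4:**
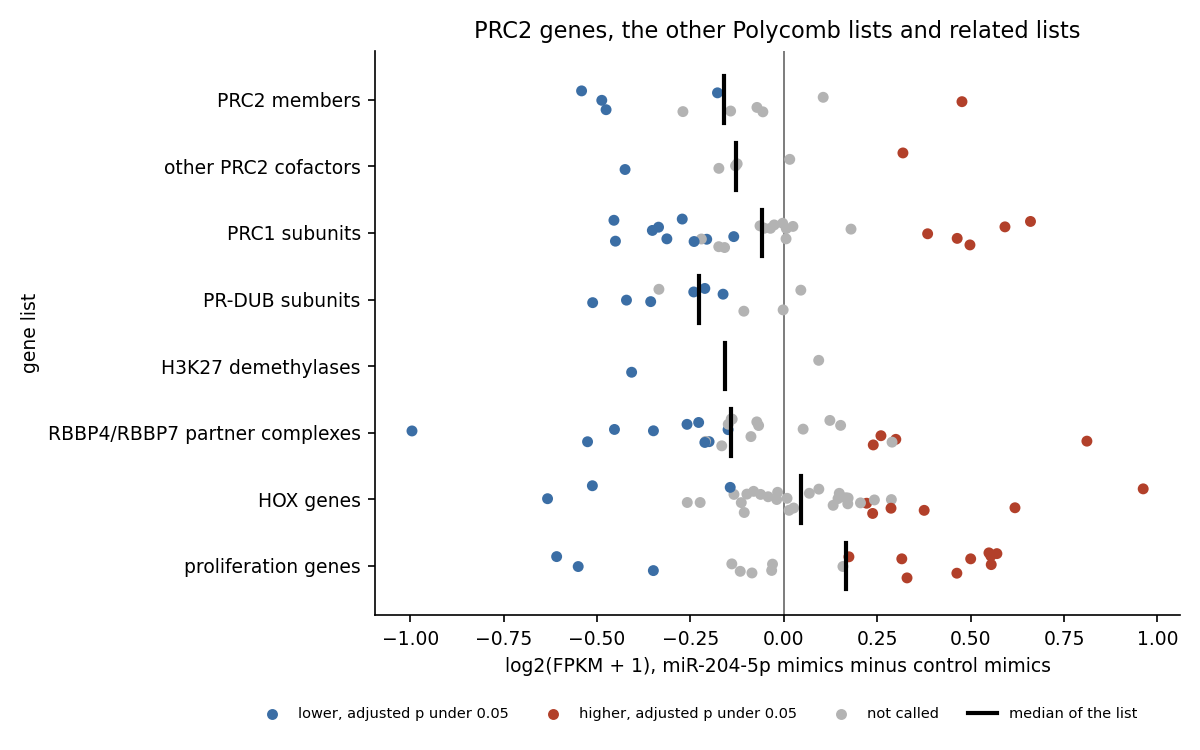
Log2 difference (miR-204-5p mimics minus control mimics, log2(FPKM + 1)) of every gene of 8 lists, spread vertically at random. Blue and red points passed an adjusted p of 0.05, grey ones did not, and black bars are list medians. The PRC2 genes (median −0.16) and PR-DUB (−0.23) lie mostly left of 0 and the proliferation genes (0.17) mostly right. Medians near that of PRC2 were those of H3K27 demethylases (−0.16), RBBP4/RBBP7 partner complexes (−0.14) and other PRC2 cofactors (−0.13).

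Proliferation genes were counted because EZH2 is known to follow cell division. Of 18 genes 3 were lower (16.8% of all genes) and 9 higher (23.9% of all genes) after miR-204-5p mimics. CCNA2 (log2 difference −0.61), TOP2A (−0.55) and AURKB (−0.35) were lower, and the replication helicase genes MCM3 (0.57), MCM2 (0.56) and MCM7 (0.55) were higher, so the list did not move one way. The call of AURKB was lost without mimics replicate 1 or 2 (limma adjusted p of 0.0701 and 0.0749). Their part in the values of PRC2 genes was not tested.

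The identity of the line was checked on markers. All 9 squamous epithelial markers were in the table, with a summed level of 909 to 996 FPKM with miR-204-5p mimics and 1040 to 1058 with control mimics. Of these 9, 5 were lower (16.8% of all genes were) and 3 higher (23.9% of all genes). TP63 (−1.01), KRT14 (−0.51) and KRT5 (−0.43) were lowest, and KRT6A (0.81), CDH1 (0.39) and SFN (0.26) were higher, all as log2 differences. Of 10 markers of other cell types 8 were in the table, summing to 10.99 to 12.7 and 9.49 to 10.6 FPKM, of which COL1A1 made up 9.46 ± 0.919 and 8.37 ± 0.428 (SD, n = 3). The other 7 each had a group mean of at most 0.605 FPKM, and none of the 8 was at 0 in all libraries. By limma 3 of the 8 were higher (23.9% of all genes) and 0 lower (16.8% of all genes). The part of these shifts in the PRC2 values was not tested.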

How the data were processed

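RNA of 6 UM-SCC1 libraries was sequenced by the authors on Illumina instruments from TruSeq libraries. The deposited FPKM values were computed by the authors. Their processing notes name HISAT2, StringTie and hg38, with no version or role, and the annotation is not given in the sources used here. The listed transcripts were compared with GENCODE 29 on GRCh38, where 14951 were found and 14807 had the same length. The 3 columns of the authors' own comparison (log2 ratio, p-value, FDR) were not used. The methods name edgeR, which needs counts, so limma (version 3.58.1, R 4.3.3) with its trended eBayes step was run on log2(FPKM + 1) of all genes without filter or scaling, two-sided, with Benjamini-Hochberg adjustment at 0.05. limma was tested on simulated data. Paralog ratios were compared by exact permutation. 3'UTRs were taken after the annotated stop codon of protein-coding transcripts. Other steps used scipy 1.17.1 and pandas 2.3.3 under Python 3.11.15.

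Replicates are independent experiments by the design description of the series, while the sample labels give only replicate numbers, and no 2 libraries held the same values. Depth was inferred from the smallest steps of FPKM times length in genes with 1 annotated transcript (a value counted as whole within 0.02 of a step). The members and lists were chosen with earlier results of these data known. Named were all PRC2 members, all genes of lists with at most 8 genes, up to 3 lower and 3 higher called genes of the other lists with a mean FPKM of at least 1, and the 3 genes most like EZH2 and SUZ12. BAP1 and COL1A1 fall outside the rule and were named after their values were seen, and some genes that the rule names are not reported here. Alternatives were a pseudocount of 0.1, only genes averaging 1 FPKM, the replicate block, each library left out, equal medians, quantile normalization and no trend.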

Additional observations from a re-analysis of the deposited data

How the results depend on the processing

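Of 12 alternatives, leaving out single libraries and the replicate block moved calls of PRC2 genes. The number of PRC2 genes that passed, 5 with all libraries, was 3 to 4 with 1 library left out, and the number lower was 2 to 3 instead of 4, the calls of AEBP2 and PHF19 being those lost. SUZ12, JARID2 and RBBP7 passed under all 12, and EZH2, EZH1, EED, RBBP4 and MTF2 under none. Over all genes 6098 passed, and 4971 to 5371 with 1 library left out. With fewer libraries the fit has fewer samples. The split by direction depended on scaling. Lower and higher genes numbered 2520 and 3578 without scaling, 2758 and 3343 with equal medians and 3026 and 3043 with quantile normalization. The PRC2 counts of 4 lower and 1 higher were the same under both. Other PRC2 cofactors were lower for 2 genes instead of 1 with equal medians, quantile normalization or no trend, and the cause was not tested. With 1 library left out, lower PRC1 subunits numbered 5 to 8 instead of 9, lower H3K27 demethylases 0 to 1 and higher HOX genes 3 to 5 instead of 6. Quantile normalization left 3 higher HOX genes. Leaving out 1 library gave a log2 difference of the EZH2 to EZH1 ratio from −0.0451 to 0.0470 (−0.0113 without control replicate 3), of PHF19 to MTF2 from −0.10 to 0.0193 and of RBBP7 to RBBP4 from 0.66 to 0.88, so the direction of the first 2 reversed and that of the third did not.

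The labels do not say whether same-numbered libraries belong together. Deviations of same-numbered libraries from their group means correlated at −0.04, −0.02 and −0.11, and those of other pairs at −0.07 to 0.11. With 3 libraries per group these values cannot decide whether the libraries were paired. With the replicate block 5096 genes passed, PRC2 genes numbered 4 (3 lower, with PHF19 at limma adjusted p = 0.106), no H3K27 demethylase (0) was lower and 3 HOX genes were higher. If the values belong to the listed transcripts, the inferred depth limits AEBP2 and RBBP7 most. Over all single genes named, 43 calls were lost in these alternatives and none reversed, while 509 values kept direction and call.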
